A study of Rattus norvegicus with 13 samples.

Results

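The genes described here are the insulin-like growth factors, their signaling receptor and their binding proteins, measured in cultured rat articular chondrocytes. They were chosen by symbol: Igf1, Igf2, Igf1r and Igfbp2 to Igfbp7, 9 of the 14217 genes named by the array's annotation, measured by the 21 of 31042 probe sets assigned to 1 of them alone. Chondrocytes isolated from the femoral heads of 2-month-old male Wistar rats were expanded, pooled at the second passage and divided among flasks. By the study's methods, the 4 RNA samples of each group with the highest purity ratio were labeled. Each was applied to its own Affymetrix Rat Genome 230 2.0 array. The study then left out 1 untreated and 2 glucosamine-alone samples that failed its quality criteria. In all, 4 groups were compared on 13 arrays. Cultures given both agents received 20 mM glucosamine and, 6 hours later, 10 ng/ml IL-1β for a further 14 hours (n = 4 arrays). Cultures given IL-1β alone received 10 ng/ml for 14 hours (n = 4), cultures given glucosamine alone were held at 20 mM for 20 hours (n = 2), and untreated cultures received neither (n = 3). All flasks came from 1 pool of cells grown in serum-supplemented medium, so the p-values below measure only the spread between flasks of that pool. All contrasts with untreated cultures share the same 3 arrays.

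IGF-I and IGF-II are secreted peptides that act through the IGF-I receptor, a tyrosine kinase of the cell membrane that recruits the insulin receptor substrates. In articular cartilage IGF-I is known as a principal anabolic factor that promotes proteoglycan and type II collagen synthesis. The binding proteins IGFBP-2 to IGFBP-6 hold IGFs with high affinity, and according to the setting they withhold the ligand from its receptor or carry it to the cell, while IGFBP-7 binds IGFs only weakly. IL-1β is an inflammatory cytokine that turns chondrocytes toward matrix breakdown, and glucosamine is an amino sugar taken as a dietary supplement for osteoarthritis.

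The deposited values are linear intensities scaled alike across arrays, here called signals. Values below 5.71, the 25th percentile of all signals, were set to that floor before log2 was taken, and a group lying at the floor gives only a lower bound to a fold change. The array means lay between 127 and 145, and replicate d of both agents and replicate d of IL-1β alone spread more widely than the other 11 arrays at low signals. Chondrocyte markers were present in every group, with the brightest Col2a1 probe set between 2422 and 4165 on all arrays. The study's own tables give collagen type II at far lower signals and list it among the genes most reduced by IL-1β. The fibroblast collagen Col1a1 was also present in every group (3122 to 4353). It is 1 of 5 fibroblast markers, which did not all hold level against untreated cultures. With IL-1β 1 was called higher and 2 lower, beside 11.1% higher and 13% lower of all probe sets. With both agents 1 was higher and 3 lower, beside 11.5% and 12.4%. With glucosamine 0 were higher and 1 lower, beside 7.14% and 7.56%. The summed signal of 7 chondrocyte markers was 5679 to 6818 with both agents, 5136 to 6226 with IL-1β, 7242 to 7590 with glucosamine and 9410 to 10663 in untreated cultures, and 6 of the 7 fell with IL-1β. Summed markers of leukocytes, endothelium and adipocytes reached at most 197 on any array, and Ptprc, which defines leukocytes, lay between -9.02 and 10.8. The leukocyte sum ranged from 28.2 to 120 with both agents and from 28.6 to 115 with IL-1β, against 22.9 to 25.5 in untreated cultures. Of the leukocyte markers, Itgam was at the floor on all 4 IL-1β arrays and Csf1r on 2 of them. Cd3e, also a leukocyte marker, read 9.06 to 69.0 with IL-1β, against 3.45 to 7.69 in untreated cultures. None of the 4 leukocyte markers tested was called in these comparisons with untreated cultures. In such bulk cultures fewer cells of a type and less RNA per cell cannot be told apart, and the part of the marker shift in the changes below was not tested.

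Each agent changed this gene family in both directions. IL-1β alone raised Igfbp3 and Igfbp5 and lowered Igf1, Igfbp2 and Igfbp4, while glucosamine alone raised Igfbp5 and lowered Igf1, Igfbp2 and Igfbp3. When IL-1β was added to cultures already holding glucosamine, Igfbp3 stayed near the floor and Igfbp5 lay between 189 and 255, against 167 to 179 in untreated cultures. The plot of signals by array shows the 9 genes side by side.

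**Figure D1:**
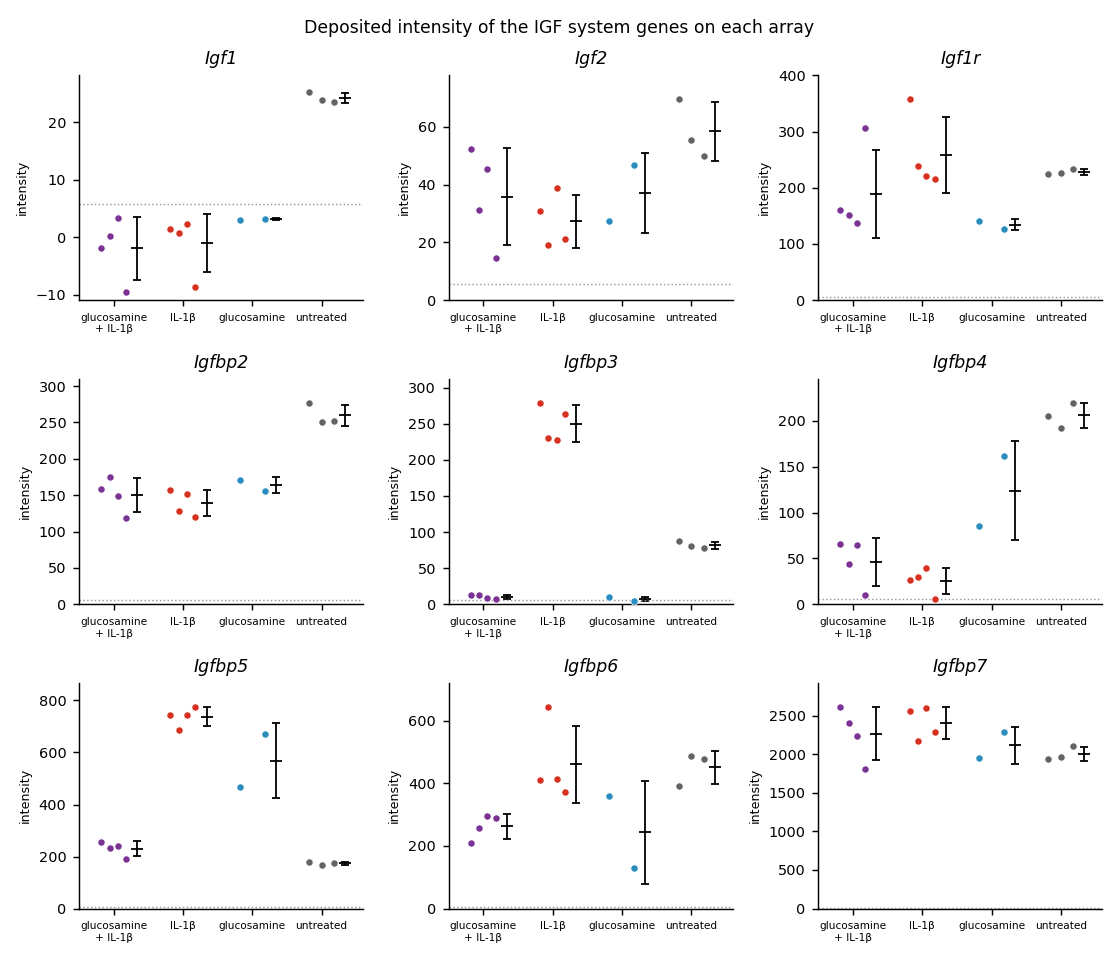
Signal (deposited intensity, linear axis) of 1 probe set for each gene, with 1 point per array and the mean ± SD beside each group of 4, 4, 2 and 3 arrays; the dotted line is the floor of 5.71. Igfbp3 is high only on the 4 IL-1β arrays (227 to 279) and at most 12.9 on all arrays with glucosamine, whereas Igfbp5 is high with either agent alone and between 189 and 255 with both.

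Counts were made over the 20 of 21 member probe sets that lay above the floor on at least 1 array. They are not independent, since up to 5 probe sets measure 1 gene. With IL-1β alone against untreated cultures 12 passed an adjusted p of 0.05, 6 higher and 6 lower, beside 24.1% of all 29263 probe sets tested (11.1% higher and 13% lower). With glucosamine alone against untreated cultures 11 passed, 5 higher and 6 lower, beside 14.7% of all (7.14% higher and 7.56% lower). Counted with 1 probe set per gene, 2 genes were higher and 3 lower with IL-1β, and 1 was higher and 3 lower with glucosamine.

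With both agents against untreated cultures 9 member probe sets passed, 1 higher and 8 lower, beside 23.9% of all (11.5% higher and 12.4% lower). Against IL-1β alone 8 passed in the cultures given both, 1 higher and 7 lower, beside 23.3% of all (11.9% higher and 11.4% lower). Against glucosamine alone 4 passed, all lower and all of Igfbp5, beside 1.79% of all (0.933% higher and 0.861% lower). The median log2 fold change of the members was -0.42 for both agents against untreated cultures, beside 0.13 over all probe sets, and -0.62 for glucosamine alone, beside a median of zero over all.

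The ligand Igf1 was detected above the floor in untreated cultures only. Its signal was -1.78, 0.289, 3.39 and -9.47 with both agents, 1.38, 0.795, 2.25 and -8.56 with IL-1β, 3.09 and 3.25 with glucosamine, and 25.2, 23.8 and 23.5 in untreated cultures. All 10 treated arrays lay under the floor and none overlapped the untreated ones. Igf1 was thus at least 4.23-fold lower with both agents (adjusted p = 1.6e-07, limma), with IL-1β (1.1e-07) and with glucosamine (2e-06), each against untreated cultures. The 2 other Igf1 probe sets showed the same arrangement at lower signals, at least 3.51-fold and at least 1.91-fold lower in each treatment. How the 3 treatments rank among themselves could not be read from these arrays, because every treated value was at the floor.

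Igf2, the ligand best known from fetal growth, gave weaker evidence. Its brightest probe set read 52.2, 31.1, 45.5 and 14.5 with both agents, 30.7, 18.9, 38.7 and 21.0 with IL-1β, 27.2 and 46.9 with glucosamine, and 69.7, 55.5 and 50.0 in untreated cultures. The IL-1β and glucosamine arrays all lay under the untreated ones, but the spread within groups was wide. The log2 fold change was -1.14 ± 0.43 (SE) with IL-1β (adjusted p = 0.077) and -0.69 ± 0.51 with glucosamine (adjusted p = 0.55). The IL-1β value passed the threshold when replicate d of both agents was left out of the fit (adjusted p = 0.015). Of the 3 other Igf2 probe sets, 2 read 1.20 to 34.9 with no call in any comparison and 1 was at the floor on all 13 arrays.

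Igf1r encodes the IGF-I receptor, through which both ligands signal. Its brighter probe set read 161, 151, 137 and 306 with both agents, 359, 239, 221 and 216 with IL-1β, 141 and 127 with glucosamine, and 225, 227 and 234 in untreated cultures. The glucosamine arrays and 3 of the 4 arrays with both agents lay below every untreated array, and replicate d of both agents lay above them. No comparison passed the threshold over all arrays: the log2 fold change was -0.77 ± 0.30 with glucosamine (adjusted p = 0.13) and -0.35 ± 0.25 with both agents against untreated cultures (adjusted p = 0.39). Without replicate d of both agents they were -0.77 (adjusted p = 0.014) and -0.61 (adjusted p = 0.017), and the difference between both agents and IL-1β alone, -0.50 ± 0.23 over all arrays (adjusted p = 0.17), was -0.76 (adjusted p = 0.0035). The second Igf1r probe set read 86.2 to 128 with glucosamine and 135 to 151 in untreated cultures, was called in no comparison, and followed the first only loosely over the 13 arrays (r = 0.07).

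The binding proteins Igfbp3, Igfbp4 and Igfbp5 were among the members with the widest changes. The 250 bases before their annotated start sites are printed here because the 3 genes gave 3 different patterns of calls, and they show the sequence that lies upstream of each. They are read 5′ to 3′ toward the gene from the RefSeq annotation of the rat assembly GRCr8, at chr14:86277945-86278194 (minus strand) for Igfbp3, chr10:84491221-84491470 (plus strand) for Igfbp4 and chr9:81914188-81914437 (minus strand) for Igfbp5. Capitals mark matches to 4 motifs searched on both strands: the TATA box TATAAA, the GC box GGGCGG, the AP-1 motif TGANTCA and the NF-κB consensus.
Igfbp3: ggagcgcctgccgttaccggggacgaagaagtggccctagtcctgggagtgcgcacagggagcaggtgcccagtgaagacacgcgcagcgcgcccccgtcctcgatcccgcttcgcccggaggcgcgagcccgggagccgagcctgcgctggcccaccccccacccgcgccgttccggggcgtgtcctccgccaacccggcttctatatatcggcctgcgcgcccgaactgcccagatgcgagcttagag
Igfbp4: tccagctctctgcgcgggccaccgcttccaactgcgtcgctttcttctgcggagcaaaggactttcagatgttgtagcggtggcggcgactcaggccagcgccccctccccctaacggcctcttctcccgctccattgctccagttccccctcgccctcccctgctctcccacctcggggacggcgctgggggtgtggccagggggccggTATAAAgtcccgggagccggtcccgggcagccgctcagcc
Igfbp5: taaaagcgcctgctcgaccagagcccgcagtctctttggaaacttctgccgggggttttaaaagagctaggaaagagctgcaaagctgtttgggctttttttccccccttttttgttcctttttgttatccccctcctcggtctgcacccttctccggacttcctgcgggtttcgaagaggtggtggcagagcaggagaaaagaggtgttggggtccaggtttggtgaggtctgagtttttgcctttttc

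The Igfbp4 window held TATAAA, which begins 40 bases before the start and overlaps no other motif, and the Igfbp3 and Igfbp5 windows held none of the 4 motifs. Of 33469 annotated rat promoter windows of this length, 12.9% held TATAAA, 30.5% the GC box, 6.34% the AP-1 motif and 6.33% the NF-κB consensus. Among the 10 windows of the 9 members, 1 held TATAAA, 4 the GC box, 0 the AP-1 motif and 1 the NF-κB consensus. G and C made up 71.6% of the Igfbp3 window, 68.8% of the Igfbp4 window and 51.6% of the Igfbp5 window. A match is a description of the letters and not a site of action, and no match says nothing of the factor. By the same annotation Igfbp5 is the neighbor of Igfbp2 on chromosome 9 and Igfbp3 that of Igfbp1 on chromosome 14, each pair on opposite strands.

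Igfbp3, the main carrier of IGFs in serum and known in other cells to restrain growth, moved in opposite directions with the 2 agents. Its brighter probe set read 12.9, 12.5, 8.80 and 7.53 with both agents, 279, 229.6, 227 and 264 with IL-1β, 9.57 and 5.27 with glucosamine, and 87.2, 80.2 and 77.4 in untreated cultures. No array of the IL-1β, untreated and glucosamine groups overlapped another group, and the cultures given both agents lay with those given glucosamine alone. IL-1β raised the signal 3.06-fold over untreated cultures (log2 1.61 ± 0.23, adjusted p = 2.7e-04). Glucosamine lowered it 11.01-fold in the fit (log2 -3.46 ± 0.28, adjusted p = 7.3e-06), in which the 1 glucosamine array below the floor was set to it.

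With both agents Igfbp3 was 8.02-fold lower than in untreated cultures (log2 -3.00 ± 0.23, adjusted p = 2.2e-06) and 24.5-fold lower than with IL-1β alone (log2 -4.61 ± 0.21, adjusted p = 4.5e-08). Against glucosamine alone, the addition of IL-1β gave a log2 difference of 0.46 ± 0.26, which did not pass (adjusted p = 0.82). The second Igfbp3 probe set was under the floor on all 6 arrays with glucosamine, at 142 to 245 with IL-1β and at 64.7 to 68.8 in untreated cultures. It was at least 34.2-fold lower with both agents than with IL-1β alone (adjusted p = 9.4e-09). The study itself listed Igfbp3, Igfbp4 and Igfbp5 among its responding genes, so their directions are not independent evidence.

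Igfbp5, a binding protein that adheres to extracellular matrix and is abundant in skeletal tissue, rose with either agent given alone but much less with the combination. It read 255, 232, 242 and 189 with both agents, 744, 687, 745 and 774 with IL-1β, 468 and 669.8 with glucosamine, and 179, 167 and 177 in untreated cultures. The IL-1β arrays and the glucosamine arrays lay above all others without overlap, and the 4 arrays of both agents lay just above the untreated ones. IL-1β raised it 4.23-fold (log2 2.08 ± 0.12, adjusted p = 1.6e-07) and glucosamine 3.21-fold (log2 1.68 ± 0.15, adjusted p = 1.3e-05) over untreated cultures.

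With both agents Igfbp5 was 3.23-fold lower than with IL-1β alone (log2 -1.69 ± 0.11, adjusted p = 7.5e-07) and 2.46-fold lower than with glucosamine alone (log2 -1.30 ± 0.14, adjusted p = 4.3e-04). In a fit of those 2 groups by themselves the difference from glucosamine alone did not pass (adjusted p = 0.05). Over untreated cultures the combination differed by log2 0.39 ± 0.12 (adjusted p = 0.038), a call that was lost when any 1 of 7 arrays was left out or under 4 other settings, with adjusted p of up to 0.13. The 4 other Igfbp5 probe sets followed the same course in the plot by probe set: all were called higher with glucosamine and lower with both agents than with IL-1β alone, and 3 of the 4 were called higher with IL-1β. None of them was called between both agents and untreated cultures.

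**Figure D2:**
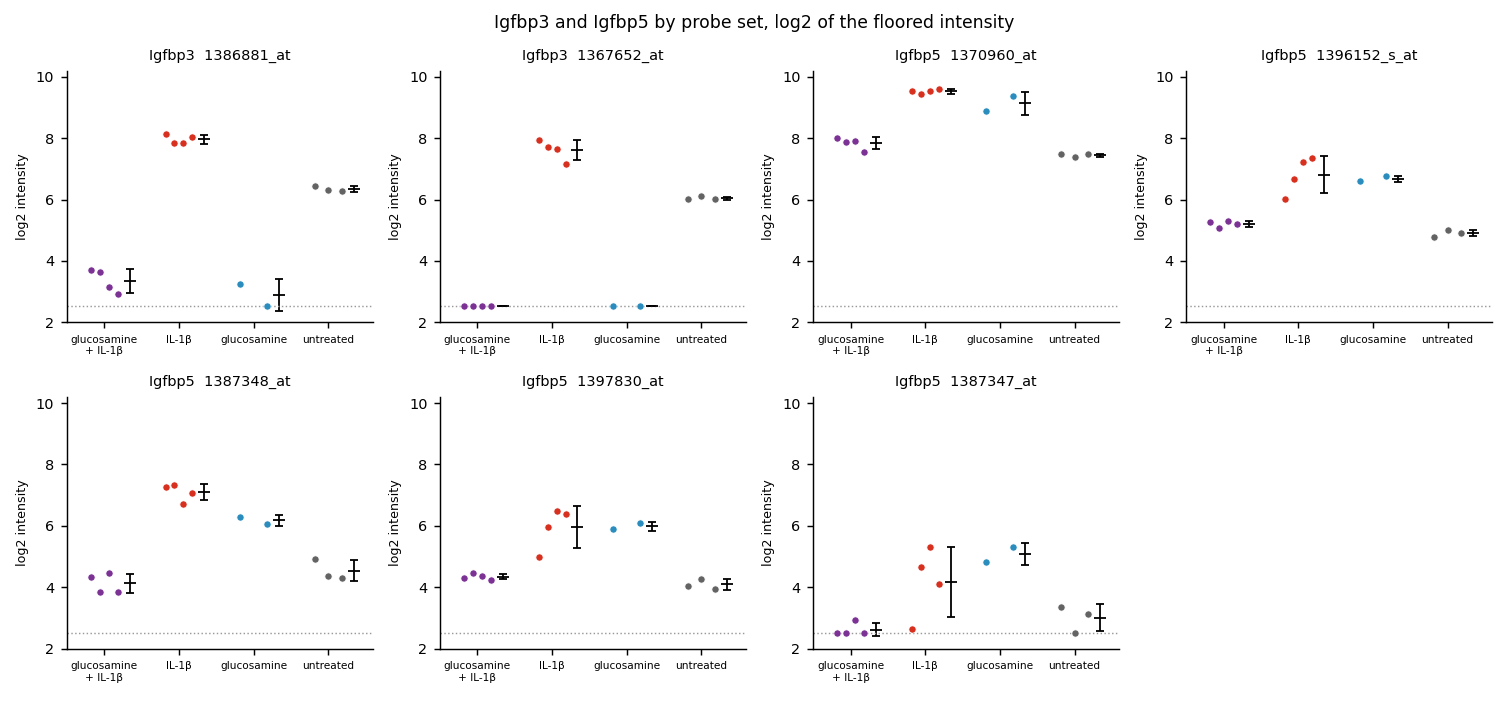
Log2 signal after flooring (dotted line) for the 2 probe sets of Igfbp3 and the 5 of Igfbp5, with 1 point per array and the mean ± SD of each group. Both Igfbp3 probe sets are at or near the floor wherever glucosamine was present. All 5 Igfbp5 probe sets have a higher group mean with either agent alone than with both. On the dimmest of them the IL-1β arrays overlap those with both agents.

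Igfbp4 and Igfbp2 were lower in treated cultures. Igfbp4, best known for blocking IGF action until cleaved by a protease, read 66.2, 43.4, 64.5 and 10.3 with both agents, 27.0, 29.8, 39.6 and 5.91 with IL-1β, 85.4 and 162 with glucosamine, and 205, 192 and 219 in untreated cultures. Every treated array lay below every untreated array, and replicate d was the lowest in both groups that had one. IL-1β lowered Igfbp4 9.87-fold against untreated cultures (log2 -3.30 ± 0.72, adjusted p = 0.0049) and both agents 5.52-fold (log2 -2.47 ± 0.72, adjusted p = 0.026). Replicate d carried part of both values: without it the log2 fold change was -2.70 with IL-1β (adjusted p = 0.0065), and without that of both agents it was -1.85 with both (adjusted p = 0.039).

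The Igfbp4 value for both agents no longer passed when any 1 untreated array was left out (adjusted p = 0.071 to 0.082). For glucosamine alone Igfbp4 differed from untreated cultures by log2 -0.80 ± 0.86 (adjusted p = 0.80), whereas the analysis of variance and Tukey test of the study's methods, on the linear signals, called it lower with glucosamine than in untreated cultures and lower with both agents than with glucosamine alone. Igfbp4 was higher with both agents than with IL-1β alone in all 4 pairs of arrays that share a letter, but the letters a to c were not shown to mark pairs. The difference of log2 0.84 ± 0.66 did not pass in the main fit, which held no block (adjusted p = 0.49). It passed with the letter as a replicate block (0.84, adjusted p = 0.014) and without both replicate d arrays (0.85, adjusted p = 0.024). It was 1.45 without replicate d of both agents alone (adjusted p = 0.074) and 0.23 without that of IL-1β alone (adjusted p = 0.79). The methods' analysis of variance and Tukey test did not call Igfbp4 between both agents and IL-1β alone. The study lists Igfbp4 among genes strongly reduced by IL-1β, without its mark for effects that glucosamine failed to inhibit.

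Igfbp2, a binding protein abundant in fetal tissue, fell in all 3 treatments. It read 159, 174, 149 and 119 with both agents, 157, 128, 152 and 120.0 with IL-1β, 171 and 156 with glucosamine, and 277, 250.3 and 253 in untreated cultures. All treated arrays lay below the untreated ones, and the treated groups overlapped. It was 1.74-fold lower with both agents (log2 -0.80 ± 0.13, adjusted p = 7.1e-04), 1.88-fold lower with IL-1β (log2 -0.91 ± 0.13, adjusted p = 2.6e-04) and 1.59-fold lower with glucosamine (log2 -0.67 ± 0.16, adjusted p = 0.012), each against untreated cultures. The glucosamine value did not pass without glucosamine replicate b (adjusted p = 0.12). Both agents differed from IL-1β alone by log2 0.11 ± 0.12 (adjusted p = 0.68).

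Igfbp6, which prefers IGF-II as its ligand, gave different answers from its 2 probe sets. The brighter read 209.9, 257, 296 and 290.0 with both agents, 412, 644, 414 and 373 with IL-1β, 361 and 128 with glucosamine, and 392, 489 and 477 in untreated cultures. The arrays with both agents lay below all IL-1β and untreated arrays, but no comparison passed over all arrays (log2 -0.79 ± 0.30 against untreated cultures, adjusted p = 0.084, and -0.79 ± 0.28 against IL-1β alone, adjusted p = 0.063). Both of these values passed when either glucosamine array was left out (adjusted p of at most 0.011), and the glucosamine value, -1.07 ± 0.36 (adjusted p = 0.073), was -1.81 without glucosamine replicate a (adjusted p = 0.0028). The dimmer read 77.2, 93.7, 82.5 and 103 with both agents, 49.6, 64.2, 55.5 and 56.9 with IL-1β, 101 and 92.7 with glucosamine, and 116, 115 and 119 in untreated cultures. On this probe set IL-1β lowered the signal 2.08-fold (log2 -1.05 ± 0.12, adjusted p = 3.2e-05), and with both agents it was 1.57-fold higher than with IL-1β alone (log2 0.65 ± 0.11, adjusted p = 8.4e-04). The 2 probe sets correlated at r = -0.14 over the 13 arrays, so the direction of Igfbp6 is uncertain.

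Igfbp7, the low-affinity member, was called in no comparison. It read 2610.1, 2405, 2238 and 1809.7 with both agents, 2562, 2166, 2597 and 2285 with IL-1β, 1947 and 2283 with glucosamine, and 1932, 1965 and 2101 in untreated cultures. The IL-1β arrays lay above the untreated ones by a narrow margin and the other groups overlapped them. The log2 difference from untreated cultures was 0.17 ± 0.12 with both agents (adjusted p = 0.39), 0.26 ± 0.12 with IL-1β (adjusted p = 0.15, or 0.046 without both replicate d arrays) and 0.08 ± 0.14 with glucosamine (adjusted p = 1).

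**Figure D3:**
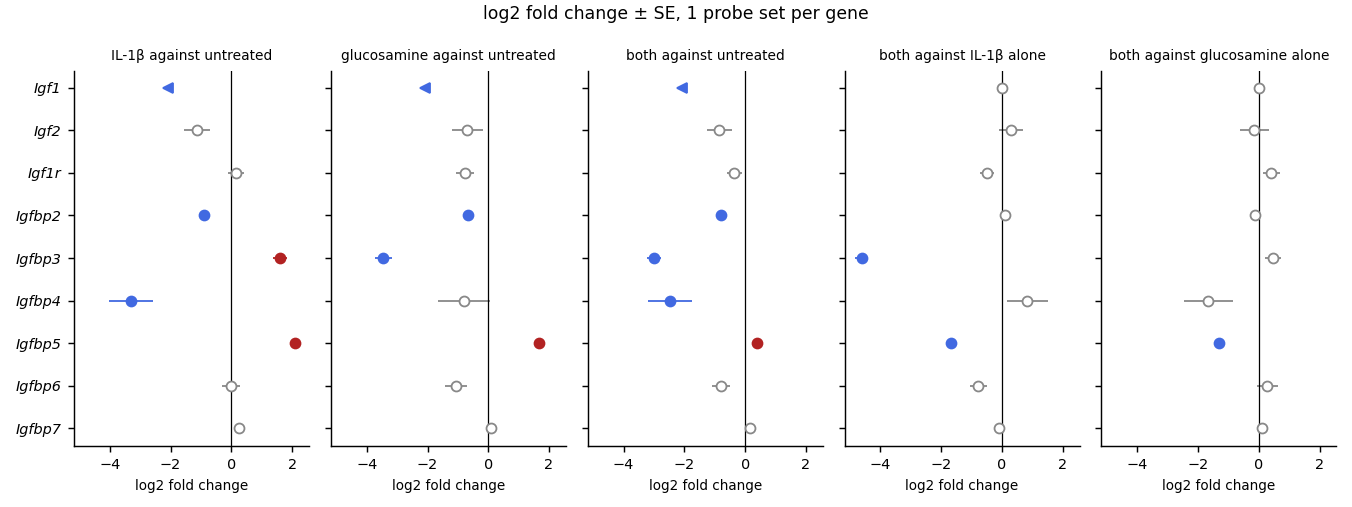
Log2 fold change ± SE of each gene (1 probe set per gene) in the 5 comparisons, with filled red symbols for values called higher, filled blue for values called lower and open grey for values not called; blue triangles are lower bounds set by the floor. Igfbp5 is the only gene called in all 5 comparisons, and it is higher in the first 3 and lower in the last 2.

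The interaction term asked whether the response to IL-1β differed between cultures with and without glucosamine. It passed for 10 member probe sets, 4 higher and 6 lower, beside 8.54% of all (3.98% higher and 4.57% lower). For Igfbp5 it was log2 -3.38 ± 0.18 (adjusted p = 1.1e-06), and its 4 other probe sets lay between -4.62 and -3.39, all called. In words, IL-1β was followed by a higher Igfbp5 signal in cultures without glucosamine and by a lower one in cultures with it. For Igfbp3 the interaction was log2 -1.15 ± 0.35 on the brighter probe set (adjusted p = 0.072, or 0.034 without glucosamine replicate b) and -1.56 on the other (adjusted p = 0.0061), where all glucosamine arrays sat at the floor. The Igf1 interaction of 2.08 (adjusted p = 1.9e-05) equals the size of its fall with IL-1β because both glucosamine groups were already at the floor, so it carries no further measurement. Igfbp2 passed narrowly (0.78 ± 0.20, adjusted p = 0.031) and lost the call when any 1 of 9 arrays was left out (adjusted p = 0.051 to 0.16).

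Around these genes, 7 of 8 listed other ligands, receptors and binding proteins of the IGF and insulin family were tested. With IL-1β 2 of the 7 passed, beside 24.1% of all probe sets: Igf2r, the scavenger receptor of IGF-II, was 1.19-fold lower (616 to 666 with IL-1β, against 760.4 to 771 in untreated cultures, adjusted p = 0.016), and Ins1, one of the rat insulin genes, was 2.02-fold higher (61.2 to 143 against 37.3 to 46.5, adjusted p = 0.015). None passed in the other comparisons. Insr, the insulin receptor, read 31.2 to 47.4 with both agents, 25.6 to 43.5 with IL-1β, 44.2 to 51.6 with glucosamine and 34.0 to 37.3 in untreated cultures, with no call. Igfbp1, the neighbor of Igfbp3, read between -4.20 and 12.98 on all arrays and was not called.

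Of 19 tested genes on the list of IGF receptor signaling, 4 rose and 4 fell with IL-1β against untreated cultures, beside 11.1% higher and 13% lower of all probe sets, with a median log2 fold change of zero beside 0.10 over all probe sets. With glucosamine and with both agents 2 rose and 3 fell against untreated cultures, beside 14.7% of all probe sets called in either direction with glucosamine and 23.9% with both. With both agents 2 were higher and 3 lower than with IL-1β alone (beside 23.3% of all), and 1 was higher than with glucosamine alone (beside 1.79%). The insulin receptor substrates, the adaptors that the activated receptor phosphorylates, were called in opposite directions with IL-1β. Irs1 read 2.19 to 16.3 with both agents, 4.47 to 7.01 with IL-1β, 21.7 to 28.7 with glucosamine and 27.7 to 32.8 in untreated cultures. It was 4.85-fold lower with IL-1β (adjusted p = 3e-04) and 2.85-fold lower with both agents (adjusted p = 0.0054) than in untreated cultures, with arrays below the floor set to it.

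Irs2 went the other way with IL-1β. It read 79.9 to 115 with both agents, 199 to 324 with IL-1β, 89.8 to 111 with glucosamine and 70.2 to 82.7 in untreated cultures. IL-1β raised it 3.28-fold (log2 1.71, adjusted p = 3e-05), it was 2.51-fold lower with both agents than with IL-1β alone (adjusted p = 1.5e-04), and the interaction was -1.70 (adjusted p = 0.0025). Grb10, an adaptor known to restrain the insulin and IGF-I receptors, was 1.72-fold lower with both agents (adjusted p = 9.7e-05), 1.99-fold lower with IL-1β (adjusted p = 1.3e-05) and 1.41-fold lower with glucosamine (adjusted p = 0.013), each against untreated cultures. Grb14, a related adaptor, fell by 0.59 on the log2 scale with glucosamine alone (adjusted p = 0.0014). Sos1, the exchange factor that links receptors to Ras, was higher by log2 0.48 with both agents (adjusted p = 0.0092), 0.41 with IL-1β (adjusted p = 0.020) and 0.47 with glucosamine (adjusted p = 0.037) than in untreated cultures. The kinase gene Akt2 fell by 0.61 on the log2 scale with IL-1β against untreated cultures (adjusted p = 0.011). Mtor, the kinase of the growth-regulating mTOR complexes, was 1.44-fold lower with both agents than with IL-1β alone (adjusted p = 0.031), with overlapping arrays (151 to 215 with both agents, against 199 to 352 with IL-1β).

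Growth hormone, acting through its receptor and the kinase JAK2, is a classical inducer of Igf1. Of 4 tested genes on that list, 1 rose and 1 fell with IL-1β, beside 11.1% higher and 13% lower of all probe sets. Ghr, the growth hormone receptor, read 27.5 to 42.0 with both agents, 14.3 to 22.9 with IL-1β, 51.8 to 54.3 with glucosamine and 72.7 to 74.2 in untreated cultures. It was 2.16-fold lower with both agents (adjusted p = 0.0016) and 3.82-fold lower with IL-1β (adjusted p = 2.1e-05) than in untreated cultures, and 1.77-fold higher with both than with IL-1β alone (adjusted p = 0.0067). Jak2 was 1.43-fold higher with both agents (adjusted p = 0.039) and 2.73-fold higher with IL-1β (adjusted p = 4.2e-05) than in untreated cultures.

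Free IGF also depends on proteases that cleave the binding proteins and on the stanniocalcins that inhibit the protease PAPP-A. Of 6 such genes 4 were tested, of which 1 rose and 1 fell with IL-1β (beside 11.1% higher and 13% lower of all probe sets). Stc1 read 54.0 to 79.4 with both agents, 116 to 204 with IL-1β, 43.3 to 52.7 with glucosamine and 112 to 126 in untreated cultures, and glucosamine lowered it 2.51-fold (adjusted p = 0.0022). Stc2 read 81.1 to 98.9 with both agents, 29.1 to 36.1 with IL-1β, 111 to 125 with glucosamine and 51.9 to 58.5 in untreated cultures, so that IL-1β lowered it 1.74-fold (adjusted p = 3e-04) and glucosamine raised it 2.11-fold (adjusted p = 2.6e-04). The stanniocalcins thus moved in opposite directions with glucosamine. Htra1, a serine protease that can cleave IGFBP-5, was 1.35-fold higher with both agents and 1.36-fold higher with IL-1β than in untreated cultures (adjusted p = 0.0038 and 0.0033).

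Secreted proteins that carry an IGFBP domain without being classical binding proteins made up a further list of 8, all tested. Against untreated cultures 2 rose and 5 fell with IL-1β (beside 24.1% of all probe sets called), 1 rose and 3 fell with glucosamine (beside 14.7%), and 2 rose and 4 fell with both agents (beside 23.9%). Against IL-1β alone 1 was higher and 4 lower with both agents (beside 23.3%), and against glucosamine alone 2 were higher and 1 lower (beside 1.79%). Esm1, a secreted proteoglycan first described in endothelium, read 216 to 274 with both agents, 1180.2 to 1407 with IL-1β, 78.2 to 90.8 with glucosamine and 44.3 to 49.7 in untreated cultures. It rose 26.9-fold with IL-1β (adjusted p = 5e-11) and was 5.35-fold lower with both agents than with IL-1β alone (adjusted p = 9.5e-09). Beside it, the endothelial markers Pecam1 (14.8 to 58.0 with IL-1β, against 5.52 to 8.02 in untreated cultures) and Tek were also called higher with IL-1β. Kdr and Vwf were not called, and Vwf lay at the floor on 3 of the 4 IL-1β arrays. The 4 endothelial markers summed to 95.1 to 197 with IL-1β, against 52.2 to 69.9 in untreated cultures. The part of any endothelial cells in the Esm1 value was not tested. Kazald1, which is known from bone, was 4.71-fold lower with both agents (adjusted p = 4.9e-08), 3.34-fold lower with IL-1β (adjusted p = 2.3e-07) and 2.71-fold lower with glucosamine (adjusted p = 1.6e-05) than in untreated cultures. Ccn1, a matricellular protein, read 48.9 to 56.2 with both agents, 84.1 to 218 with IL-1β, 93.9 to 133 with glucosamine and 269.6 to 295 in untreated cultures, and was 5.36-fold lower with both agents than in untreated cultures (adjusted p = 2.9e-05). Ccn5 of the same family was 2.39-fold lower with IL-1β than in untreated cultures (adjusted p = 3.2e-08) and 2.17-fold higher with both agents than with IL-1β alone (adjusted p = 7.4e-08). Ccn3, also of that family, read 2611 to 3177 with both agents, against 1599 to 1827 with glucosamine alone, and was 1.64-fold higher with both (adjusted p = 0.0042).

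**Figure D4:**
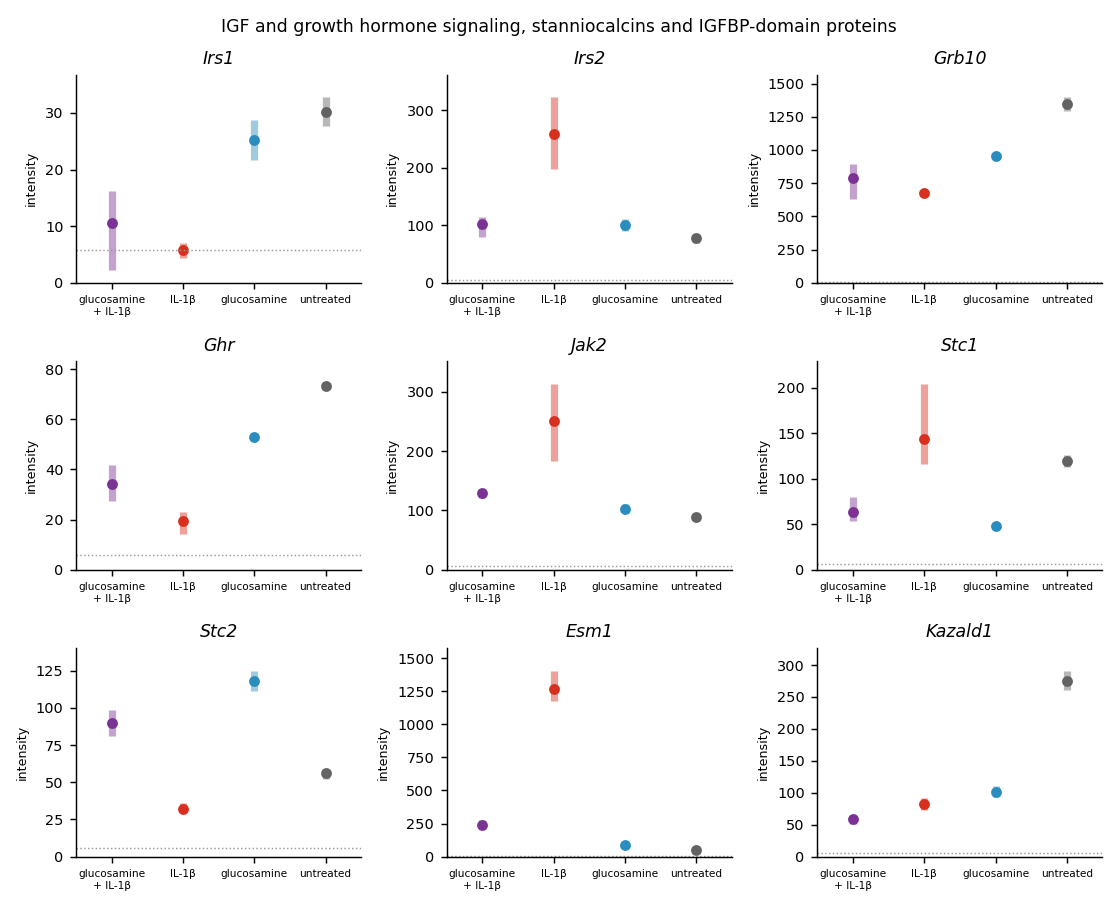
Signal (linear axis) of 9 genes that surround the IGF system, with the group mean as a point and the lowest to highest array as a bar; the dotted line is the floor. Irs2, Jak2 and Esm1 are highest with IL-1β alone, Irs1 and Ghr are lowest there, and Stc1 and Stc2 part under glucosamine.

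The genes most like a member were sought by Pearson correlation of log2 signals over the 13 arrays among 13468 genes, as a description that shares the same 4 groups. For Igfbp3 they were Myh10 (r = 0.996), Aurkb (0.984) and Tubb4b (0.983), and the Aurkb signal averaged 78.3 with both agents, 235 with IL-1β, 64.4 with glucosamine and 164 in untreated cultures. For Igfbp4 they were Barx1 (0.980), S100a1 (0.973) and Spsb4 (0.970). For Igfbp5 they were less close: Hectd2 (0.935), Tkt (0.901) and Plaur (0.900), and Plaur averaged 37.8 with both agents, 143 with IL-1β, 47.4 with glucosamine and 20.2 in untreated cultures. For Igf1, whose treated arrays were all at the floor, they were Afap1l2, Acss3 and Gdf10, all likewise detected mainly in untreated cultures.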

How the data were processed

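RNA of 13 flasks of pooled rat chondrocytes was measured on 1-color Affymetrix arrays. According to the study's methods and the labels, the authors read the arrays with Microarray Suite (MAS5, version 5) and converted probe intensities to 1 globally scaled expression value per probe set with Probe Profiler. The deposited intensity values are linear and partly below 0, and the labels do not state which of the 2 programs gave them. Their group means for Igfbp3 and Igfbp5 lay close to the signals the study printed. Its methods name Probe Profiler for such expression values. Groups were taken from the sample titles, because the free-text description mentions glucosamine for all samples, the untreated ones included.

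Of 31099 probe sets, 57 controls were left out. Intensities below the 25th percentile (5.71) were raised to it, log2 was taken without further scaling, and 1779 probe sets that never exceeded it were not tested. A single limma model (version 3.58.1, R 4.3.3, variance trend, 9 residual degrees of freedom) held all 4 groups, with 2-sided tests and Benjamini-Hochberg adjustment over 29263 probe sets at 0.05. A fold against a group with all arrays at the floor is given as a lower bound from the floored means. The annotation gave 1 gene to 20826 probe sets, several to 436 and none to 9780. Where a gene had more than 1 probe set, the brightest on average over the log2 signals stands for it. The number of arrays, above all the 2 with glucosamine alone, limits the precision. The fit was tested on simulated data. No 2 arrays were copies (highest r 0.993).

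The members and gene lists were chosen with earlier results of these data known. Named are all members and up to 3 called genes per list and comparison with the largest change. Igf2r, Insr, Stc1, Stc2, Irs1, Irs2, Grb10 and Ghr are named whatever their values. Pappa and Socs2 were to be named likewise but had no tested probe set. The 3 most correlated genes of Igf1, Igfbp3, Igfbp4 and Igfbp5 are also named. The letters a to d in the titles were checked for pairing by correlating deviations from the group means. Between both agents and IL-1β alone the 4 same-lettered pairs correlated at 0.38 to 0.80, and different letters among a to c at 0.33 to 0.56. Only the d pair (0.80) stood apart there, so the letters a to c were not shown to mark pairs. The main fit held no block, and the block is given only as an alternative. In the other 12 same-lettered pairs r lay between -0.17 and 0.18, and no pairing was taken. Alternatives covered the floor, scaling, filter, variance trend, groups in the fit, a replicate block, the methods' analysis of variance with Tukey test (P under 1e-04 and 0.05), each array left out, both replicate d arrays left out, and 1 probe set per gene. Promoter windows came from RefSeq (GRCr8), matched by symbol for all 9 genes.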

Additional observations from a re-analysis of the deposited data

Results flagged for a closer look

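Single arrays stood apart from the others of their group in 7 of 42 groups of 4 arrays examined, by Dixon's criterion, which chance meets in about 1 in 20 groups. The Igf1r signal was 359 on IL-1β replicate a, against 216 to 239 on the other 3 arrays, and 306 on replicate d of both agents, against 137 to 161. The Igfbp6 signal was 644 on IL-1β replicate b, against 373 to 414. The other 4 lay below the floor and bear on no call: Igf1 read -8.56 on IL-1β replicate d, and -1.92 and 2.90 on replicate c of both agents (in its 2 dimmer probe sets), and the dimmer Igfbp3 probe set read -9.76 on replicate d of both agents.

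The response to IL-1β differed with glucosamine, by limma's interaction term on the log2 scale, for Igfbp5 on all 5 probe sets at -3.38 (adjusted p = 1.1e-06), -3.39 (2e-04), -4.62 (8.2e-06), -3.51 (5.4e-04) and -3.62 (0.012). It differed for Igfbp2 by 0.78 (0.031) and for the dimmer Igfbp6 probe set by 0.92 (0.0059). For the dimmer Igfbp3 probe set the value, -1.56 (0.0061), was set by the floor, at which all its arrays with glucosamine lay. The values for Igf1, 2.08 (1.9e-05) and 1.81 (3.6e-05), were set by the floor, at which all treated arrays lay.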

How the results depend on the processing

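Counts of called member probe sets fell to 5, 4 and 5 of 9 genes when 1 probe set per gene was counted (IL-1β, glucosamine and both agents, each against untreated cultures), to 2 and 1 (both agents against IL-1β alone and against glucosamine alone) and to 3 for the interaction, because fewer probe sets were counted. The methods' analysis of variance and Tukey test called 7 (11 by limma) for glucosamine and 5 (8 by limma) for both agents against IL-1β alone. Over all 29263 probe sets that test called 2439 (4300 by limma) and 2703 (6822 by limma). A fit of only both agents and glucosamine alone called 2 (4 over all groups), beside 148 of all 28063 probe sets tested there (525 of 29263 over all groups). The cause was not tested. Leaving out each array in turn gave 12 to 13 called probe sets for IL-1β, 7 to 12 for glucosamine (7 without glucosamine replicate b) and 6 to 10 for both agents against untreated cultures, 7 to 9 for both agents against IL-1β alone, 2 to 5 against glucosamine alone, and 9 to 10 for the interaction. Over all 28914 to 29249 probe sets tested in these fits, IL-1β gave 5378 to 8375 calls. Glucosamine gave 2389 to 5222 (2389 without glucosamine replicate b) and both agents 5317 to 7753, against untreated cultures. Both agents gave 5704 to 8029 against IL-1β alone and 221 to 588 against glucosamine alone, and the interaction 1485 to 3044. With the letter a to d as a replicate block the member counts were 12, 11, 9, 9, 4 and 12 in the same order. Over all 29263 probe sets the block gave 8882, 5755, 8846, 9181, 597 and 3521 calls. The block changed no call on the represented genes other than that Igfbp4 passed for both agents against IL-1β alone (log2 0.84, adjusted p = 0.014) and for the interaction (1.54, adjusted p = 0.021), and Igfbp3 for the interaction (-1.07, adjusted p = 0.048).

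Of 702 log2 fold changes of the 9 genes with 1 array left out, 672 kept their side of the threshold, 20 lost and 10 gained a call, and of 574 under the other settings 549 kept it, 8 lost and 17 gained a call. No called value changed sign, while 20 and 17 uncalled ones did. Without both replicate d arrays 14, 12, 10, 9, 4 and 11 member probe sets were called in the same order. Calls over all 27606 probe sets tested there were 9701, 7108, 9792, 9562, 894 and 4253. In the main fit they were 7067, 4300, 6986, 6822, 525 and 2500 of 29263. Quantile normalization moved the IL-1β median over all probe sets to 0.01, against 0.10, and changed no direction given for a called member. Signals near the floor limit Igf1, Igf2 and the glucosamine groups of Igfbp3, and the Igf1 interaction did not pass with the floor at the 10th percentile (adjusted p = 0.11).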
